A study of Homo sapiens with 6 samples.

Results

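Replication-independent histone variants are histones whose genes are transcribed throughout the cell cycle, in contrast to the clustered histone genes that are switched on for DNA synthesis. Their genes were taken from a list of 9 current symbols, and 7 of the 9 were matched by Ensembl identifier among the 18318 genes of the count table: H2AX, H1-10, H2AZ1, H2AZ2, MACROH2A1, H2AJ and H3-3B. The other 2, H3-3A and MACROH2A2, were not analysed here. All 7 passed the filter on low counts that left 12797 genes for testing, with at least 28 counts each in every library.

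The cells were A375, an established human melanoma line. They were transfected with a pcDNA3.1 plasmid that carries a puromycin resistance gene and a CAG promoter, either as the vector backbone control (empty vector, 3 libraries) or with wild type, full-length SLNCR, a long non-coding RNA listed as LINC00673 (3 libraries). Both groups received the lipid transfection and were grown for 48 h in 2 µg/mL puromycin, and ribosomal RNA was depleted before sequencing. The plasmid was carried for a short time only, and the cells also express their own LINC00673. The labels number the replicates without saying whether they came from separate cultures, so p-values measure only the spread between these samples, which may be technical.

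Totals were 9287450 to 10822083 counts per library. The transfected RNA was at 19.4 to 21.3 CPM (the count scaled to library size with TMM factors) in the empty vector libraries and at 170 to 247 CPM with the SLNCR plasmid, so no library went against its label. The labels call the cell type epithelial. Of 11 melanocyte and melanoma markers 9 had a row, with a summed level of 367 to 380 CPM with the empty vector and 359 to 373 CPM with SLNCR. MITF (767 to 969 counts), CSPG4 (1564 to 1952), PRAME (708 to 827) and SOX10 (105 to 152) made up nearly all of it. The pigment genes PMEL (2 to 13 counts), MLANA (11 to 16), TYRP1 (4 to 8) and DCT (1 to 6) and also S100A1 (6 to 21) were near 0, and TYR and S100B were not analysed here. Among epithelial genes, CDH1 and EPCAM had at most 2 and 4 counts, and KRT10 had 196 to 293. Across the series the fold changes followed the GC content of transcripts (r = -0.637 and Spearman's rho = -0.692 across 12790 genes, which are not independent replicates), so each variant gene is given with its GC content and with its fold change after a correction for it.

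As background, variant histones replace the standard histones at particular places in chromatin. H2A.Z marks promoters and is put in by the SRCAP and EP400 complexes. H3.3 is placed at active genes by HIRA and at repeats and telomeres by DAXX with ATRX. H2AX is the H2A form that is phosphorylated beside DNA breaks. MacroH2A carries a large extra domain and is enriched in repressed chromatin, including the inactive X chromosome, and H1-10 is a linker histone. Most of these genes have introns and polyadenylated transcripts, whereas H2AX is known to yield both a polyadenylated and a stem-loop transcript.

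The promoters of 4 of the genes are shown because the results turn on these genes: H2AX, the only variant gene that passed the test, H3-3B, whose groups overlapped, and the pair H2AZ1 and H2AZ2, which encode near-identical proteins. Each is the stretch of 250 bases before the RefSeq transcription start (GRCh38.p14), 5′ to 3′ on the gene's strand. Capitals mark each CCAAT box and, where there is one, the TATAAA box. Both were found by a letter search on either strand, so that a CCAAT box on the opposite strand reads as its reverse complement here.
H2AX, chr11:119095466-119095715, minus strand: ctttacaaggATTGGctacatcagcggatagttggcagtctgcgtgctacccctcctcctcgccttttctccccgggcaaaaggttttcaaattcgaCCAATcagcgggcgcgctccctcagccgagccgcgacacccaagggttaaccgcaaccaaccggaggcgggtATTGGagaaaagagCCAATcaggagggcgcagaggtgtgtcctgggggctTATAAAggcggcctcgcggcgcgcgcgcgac
H3-3B, chr17:75779780-75780029, minus strand: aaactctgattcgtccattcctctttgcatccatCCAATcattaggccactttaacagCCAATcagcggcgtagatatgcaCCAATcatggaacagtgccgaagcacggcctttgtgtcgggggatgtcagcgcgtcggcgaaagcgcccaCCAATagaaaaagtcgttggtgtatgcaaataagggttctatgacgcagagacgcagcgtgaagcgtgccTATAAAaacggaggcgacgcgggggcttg
H2AZ1, chr4:99950276-99950525, minus strand: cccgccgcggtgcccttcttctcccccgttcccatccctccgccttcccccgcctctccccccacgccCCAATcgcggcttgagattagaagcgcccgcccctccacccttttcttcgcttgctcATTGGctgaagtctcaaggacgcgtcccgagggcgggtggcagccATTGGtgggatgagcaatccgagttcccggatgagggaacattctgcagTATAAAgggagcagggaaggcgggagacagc
H2AZ2, chr7:44848088-44848337, minus strand: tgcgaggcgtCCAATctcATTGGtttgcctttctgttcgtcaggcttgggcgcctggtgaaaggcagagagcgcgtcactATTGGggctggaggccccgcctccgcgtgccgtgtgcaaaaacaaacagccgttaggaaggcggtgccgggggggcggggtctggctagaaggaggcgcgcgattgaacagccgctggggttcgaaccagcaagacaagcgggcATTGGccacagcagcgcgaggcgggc

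H2AX and H3-3B each held 4 CCAAT boxes and 1 TATAAA in this window. H2AZ1 held 3 CCAAT boxes and 1 TATAAA, and H2AZ2 4 CCAAT boxes and no TATAAA. In H2AX, H2AZ1 and H1-10 the TATAAA began 31 bases before the start, and in H3-3B 29 bases. Of 35116 RefSeq windows of the same length, 32.0% held CCAAT, 9.53% held it at least 2 times, 10.7% held TATAAA and 3.81% held both. None of the E2F forms TTTCCCGC, TTTCGCGC and TTTGGCGC, searched on both strands, was in these windows of the 7 genes, and 2.32% of all windows held one. These letters describe the windows and say nothing of which factors bind there.

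In the empty vector cells the variant genes covered a wide range of levels. Per kilobase of the longest coding transcript, H2AZ1 (chromosome 4, 99948086 to 99950388) stood at 273 ± 17.2 CPM per kilobase (SD, n = 3) and H2AX (chromosome 11, 119093854 to 119095467) at 253 ± 17.3. Their libraries overlapped, so the order of these neighbours is not resolved. H3-3B (chromosome 17, 75776434 to 75785893) followed at 166 ± 2.55, MACROH2A1 (chromosome 5, 135333900 to 135399914) at 74.1 ± 3.21, H1-10 (chromosome 3, 129314771 to 129316277) at 54.0 ± 8.72 and H2AZ2 (chromosome 7, 44826791 to 44848083) at 39.3 ± 0.822, each without overlap with the next. H2AJ (chromosome 12, 14774383 to 14778002) was lowest at 6.46 ± 1.23. The order rests on the transcript chosen: per kilobase of the longest transcript of any type, H2AZ1 stood at 142, below H2AX (253) and H3-3B (161), MACROH2A1 at 18.8 and H2AJ at 1.34. Coordinates are those of GENCODE release 29 (GRCh38).

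The comparison of SLNCR with empty vector asked how these genes respond to the overexpressed RNA. H2AX fell, to 80.6% of its empty vector level, and it was the only one of the 7 that passed, although not after the GC correction. Over all genes, 7.67% passed as lower and 8.84% as higher (adjusted p by edgeR below 0.05). With 7 genes, a count of 1 is near this background. In bulk RNA, fewer cells of a type and less RNA per cell cannot be told apart. The groups of CPM did not overlap for 6 of the 7, each time with SLNCR lower, against 19.1% of all tested genes that were lower and 19.7% that were higher without overlap. The 6 share the same libraries and are not independent. The median log2 fold change of the 7 was -0.24, beside -0.01 over all genes tested.

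**Figure D1:**
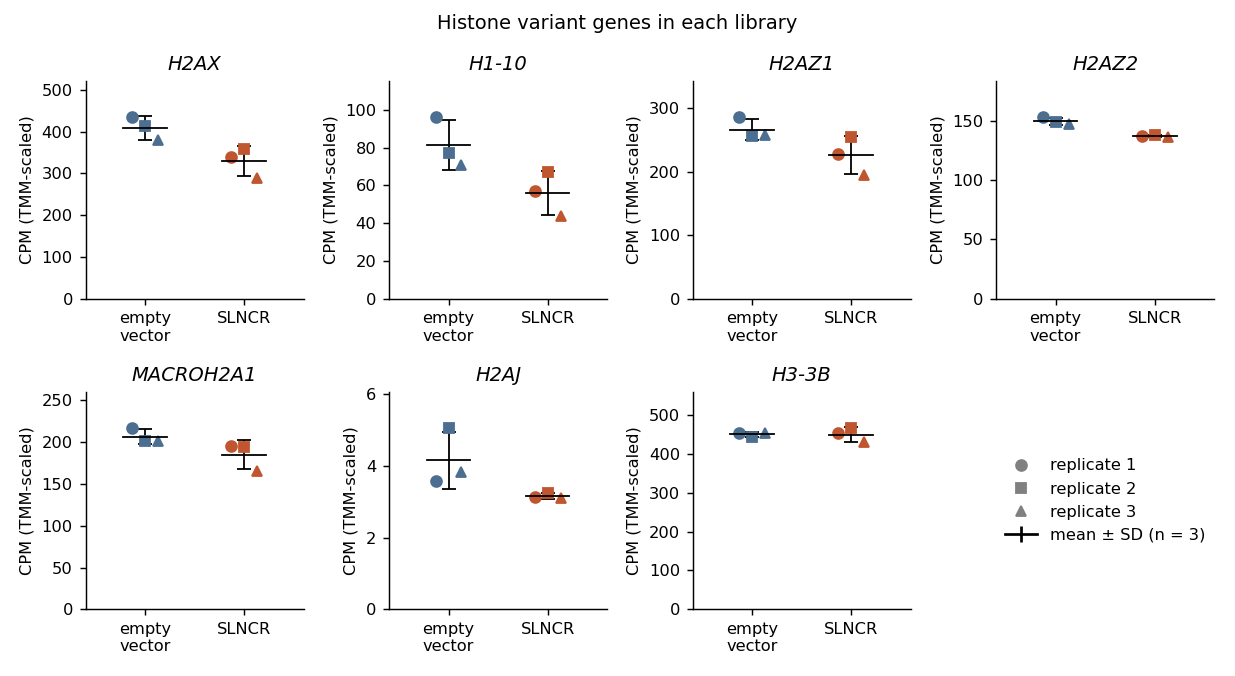
CPM (TMM-scaled) of each variant gene by library, with empty vector on the left and SLNCR on the right of each panel; points are libraries, the shape gives the replicate number, and bars give the mean and SD (n = 3). The groups separate in every panel except that of H3-3B, and SLNCR replicate 3 is the lowest library for each of the 7 genes. For H2AZ2 and H2AJ the 3 SLNCR libraries lie close together.

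H2AX encodes the histone that ATM and related kinases phosphorylate around DNA breaks. It stood at 434, 413 and 379 CPM in empty vector replicates 1, 2 and 3 and at 339, 359 and 290 CPM in SLNCR replicates 1, 2 and 3. The highest SLNCR library lay below the lowest empty vector library. The log2 fold change was -0.31 (SE 0.0710, adjusted p by edgeR = 0.0159). The transcript has a GC content of 66.4%, and after the GC correction the log2 fold change was -0.02 (SE 0.0377, adjusted p by edgeR = 0.879), with the libraries between -0.06 and 0.02 of the empty vector mean on the log2 scale. The call also ended without empty vector replicate 1 (-0.27, adjusted p by edgeR = 0.11), without empty vector replicate 2 (-0.30, adjusted p by edgeR = 0.0815) and without SLNCR replicate 1 (-0.33, adjusted p by edgeR = 0.0543), where 1, 2 and 1 genes in all passed. The genes whose log2 CPM was most like that of H2AX over the 6 libraries were GAA (r = 0.9988) and CDT1 (r = 0.9987) out of 9384 with a mean count of at least 100. Their transcripts have a GC content of 64.1% and 64.9%, and 105 genes had r above 0.99.

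H1-10, a linker histone gene, had the largest fold change of the 7 without GC correction and the highest GC content, 68.6%. It stood at 96.0, 77.2 and 70.7 CPM with the empty vector and at 57.2, 66.8 and 43.9 CPM with SLNCR. The groups did not overlap, although both spread widely, with a coefficient of variation of 16.2% and 20.5%. The log2 fold change was -0.54 (SE 0.161) and did not pass (adjusted p by edgeR = 0.0565). After GC correction it was -0.21 (SE 0.0887, adjusted p by edgeR = 0.284). The antisense gene H1-10-AS1 overlaps it on the other strand with 15 to 30 counts per library, and the strand setting of the counting is not given in the sources used here.

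The H2A.Z genes both had lower mean levels with SLNCR, and neither passed. H2AZ1 stood at 286, 256 and 258 CPM with the empty vector and at 228, 255 and 195 CPM with SLNCR. SLNCR replicate 2 lay just below the lowest empty vector library, and SLNCR replicate 3 lay well below the rest. SLNCR over empty vector gave a log2 fold change of -0.24 (SE 0.0814, adjusted p by edgeR = 0.0589). It was -0.14 without SLNCR replicate 3 and -0.34 without SLNCR replicate 2, where it passed (adjusted p by edgeR = 0.00176). After the GC correction it was -0.215 (SE 0.0967, adjusted p by edgeR = 0.362) with its longest transcript, a retained intron form at 49.1% GC. With the 46.6% of its longest coding transcript it was -0.267 (SE 0.117, adjusted p by edgeR = 0.386).

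H2AZ2 had a smaller difference and a smaller spread. It stood at 153, 149 and 147 CPM with the empty vector and at 137, 138 and 136 CPM with SLNCR. The groups did not overlap, and the coefficient of variation was 2.09% and 0.433%. On the log2 scale the change was -0.12 (SE 0.0537, adjusted p by edgeR = 0.114). With a GC content of 43.1%, below the 47.9% median of tested genes, H2AZ2 lay further from 0 after the GC correction, at -0.22 (SE 0.0470, adjusted p by edgeR = 0.0605), and did not pass. In that fit its libraries were at 0.06, -0.004 and -0.06 with the empty vector and at -0.21, -0.18 and -0.27 with SLNCR on the log2 scale relative to the empty vector mean. Those of H2AZ1, at 49.1% GC, were at 0.10, -0.06 and -0.04 and at -0.20, -0.04 and -0.43, where SLNCR replicate 2 fell within the empty vector range.

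Both H2A.Z genes feed one pool of nearly the same protein, so their shares were compared. H2AZ1 gave 65.2%, 63.3% and 63.8% of the H2A.Z reads with the empty vector and 62.4%, 65.0% and 58.8% with SLNCR. The groups overlapped, and the difference of -2.04 percentage points was not beyond the spread (two-sided exact permutation test, p = 0.4, where 3 against 3 libraries allow no p below 0.1). Per length of the longest coding transcript the shares were 87.4% ± 0.476 and 86.4% ± 1.55 (SD, n = 3 each), a difference of -1.03 points. Without SLNCR replicate 3 the difference in read share was -0.414 points, and without SLNCR replicate 2 it was -3.49 points. After the GC correction it was -0.0696 points. The same comparison of H3-3A with H3-3B was not run, since H3-3A was not analysed here.

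MACROH2A1 encodes a macroH2A. It stood at 217, 201 and 202 CPM with the empty vector and at 196, 194 and 165 CPM with SLNCR. The groups did not overlap, but SLNCR replicates 1 and 2 lay just below the empty vector libraries and SLNCR replicate 3 well below. SLNCR over empty vector gave a log2 fold change of -0.16 (SE 0.0652, adjusted p by edgeR = 0.092), -0.08 without SLNCR replicate 3, and passed at -0.20 without SLNCR replicate 2 (adjusted p by edgeR = 0.0379). After the GC correction it was -0.24 (SE 0.0767, adjusted p by edgeR = 0.192) with the 44.0% GC of its longest, non-coding transcript, and -0.04 (SE 0.0479, adjusted p by edgeR = 0.727) with the 54.9% of its longest coding transcript.

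H2AJ, which encodes an H2A form known to accumulate in senescent cells, was counted at 36, 46 and 35 reads with the empty vector and at 33, 34 and 28 reads with SLNCR. This equals 3.59, 5.06 and 3.83 CPM against 3.13, 3.26 and 3.11 CPM, so that the groups did not overlap at a level where single reads matter. On the log2 scale the change was -0.38 (SE 0.213, adjusted p by edgeR = 0.206). It was -0.49 with the GC content of the longest transcript (42.6%) and -0.15 with that of the longest coding transcript (62.9%), and passed in neither fit. Without empty vector replicate 2 the uncorrected value was -0.22 and without empty vector replicate 1 it was -0.48, and neither passed.

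H3-3B, one of the genes for the replacement histone H3.3, was the variant gene that did not separate the groups. It stood at 453, 442 and 454 CPM with the empty vector and at 452, 466 and 429 CPM with SLNCR. The means were both 449 CPM, and the SLNCR libraries lay on both sides of the empty vector libraries. SLNCR over empty vector gave a log2 fold change of -0.001 (SE 0.0477, adjusted p by edgeR = 0.986). It was 0.05 after the GC correction with its longest transcript, a retained intron form at 50.4% GC, and -0.11 (SE 0.0431, adjusted p by edgeR = 0.26) with the 43.1% of its longest coding transcript, so the sign of this small value turned with the transcript chosen. The gene UNK overlaps it on the other strand, with 382 to 458 counts. H3P6, a processed pseudogene of H3-3A that was named after its values were seen, was counted at 303 to 338 reads with the empty vector and 313 to 431 with SLNCR (log2 fold change 0.16, adjusted p by edgeR = 0.188). Of 15 annotated pseudogenes of the 9 listed genes it was the 1 with a row, and reads from near-identical copies are uncertain between genes.

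**Figure D2:**
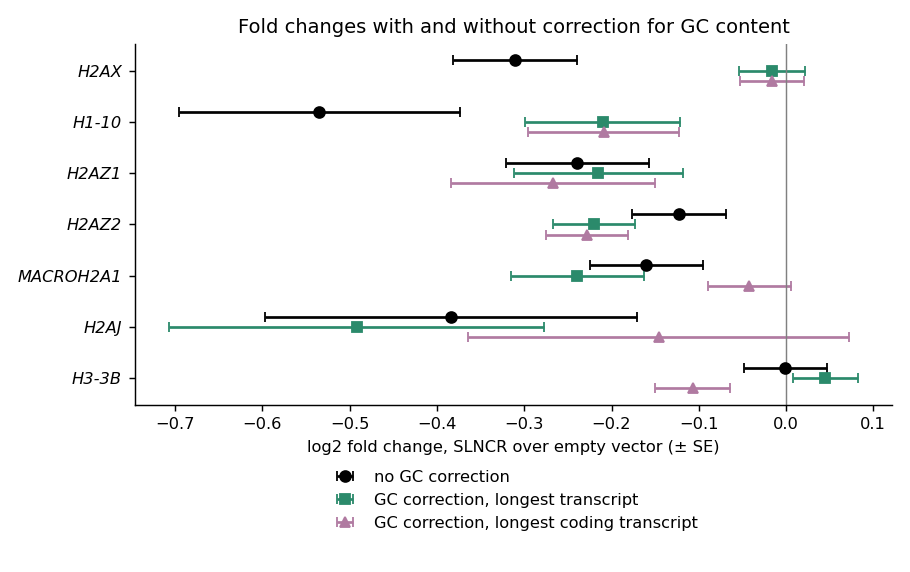
Log2 fold change of SLNCR over empty vector with its SE for each variant gene, without GC correction and with a correction on the GC content of the longest transcript or of the longest coding transcript. H2AX goes from -0.31 to -0.02, and H2AZ2 from -0.12 to -0.22 and -0.23. For these genes and H1-10 the longest transcript is also the longest coding transcript, so both corrections use the same GC content. MACROH2A1, H2AJ and H3-3B depend on which transcript is used.

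With the GC correction 0 of the 7 genes passed in edgeR, against 0.0156% of all genes. LINC00673, the transfected RNA itself, did not pass in that fit either (log2 fold change 3.38, SE 0.201, adjusted p by edgeR = 0.0539). With coding transcripts its adjusted p by edgeR was 0.0506. A gene that did not pass there therefore cannot be read as unchanged. The part of GC content in the differences between groups was not tested. At an unadjusted edgeR p below 0.05 there were 4 of the 7 genes, all lower: H2AZ2, MACROH2A1, H2AJ and H1-10. At that level 7.64% of all genes were lower and 7.49% were higher. With coding transcripts, an alternative chosen after seeing the data, there were 3, also all lower: H2AZ2, H1-10 and H3-3B. In that fit 7.07% of all genes were lower and 7.21% higher at that level. The median log2 fold change of the 7 genes was -0.22 with the correction and -0.15 with that on coding transcripts, against 0.002 over all genes tested with the former. Under both corrections H2AZ1, H2AZ2 and H1-10 were between -0.27 and -0.21, and H2AX was at -0.02. MACROH2A1 was at -0.24 and -0.04, H2AJ at -0.49 and -0.15, and H3-3B at 0.045 and -0.107. For H2AX, H2AZ2 and H1-10 the longest transcript is also the longest coding transcript. Both corrections thus used the same GC content for them and are not separate checks.

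**Figure D3:**
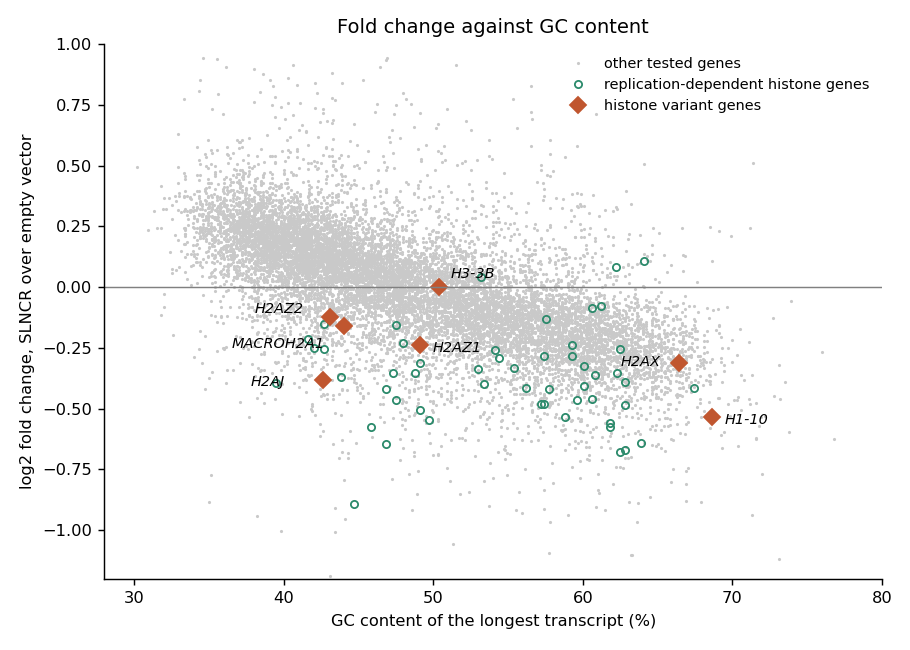
Log2 fold change of SLNCR over empty vector against the GC content of the longest transcript, for 12773 tested genes (17 lie outside the axes). Grey points are other genes, open circles are replication-dependent histone genes and diamonds are the 7 variant genes; H2AX lies at -0.31 within the band of genes near its GC content of 66.4%, and H2AZ2 (-0.12 at 43.1%) and MACROH2A1 (-0.16 at 44.0%) lie below 0 where most points are above it.

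Replication-dependent histone genes, which supply histones during DNA synthesis, are given side by side. Of 54 tested, 25 fell, 0 rose and 29 did not pass, with a median log2 fold change of -0.37 beside -0.24 for the variant genes. Of all genes 7.67% passed as lower and 8.84% as higher. After the GC correction 1 of the 54 passed, and the medians were -0.27 and -0.22. At an unadjusted edgeR p below 0.05 in that fit, 29 of the 54 were lower and 2 higher. The shares of all genes at that level were 7.64% lower and 7.49% higher. The mean log2 level relative to the empty vector was -0.33, -0.16 and -0.65 in SLNCR replicates 1, 2 and 3 for the replication-dependent genes and -0.22, -0.14 and -0.39 for the variant genes. Both families were thus lowest in SLNCR replicate 3 and nearest to the empty vector in SLNCR replicate 2. The summed level of the 8 epithelial marker genes was 27.8 to 30.5 CPM with the empty vector and 23.0 to 26.5 CPM with SLNCR; KRT10 made up most of it, and the defining genes CDH1, KRT14 and KRT19 were at or near 0. Summed fibroblast markers overlapped (at most 5.68 and 5.57 CPM), as did blood markers (0.598 to 0.880 and 0.475 to 1.11 CPM). The part of these markers in the result was not tested. The difference between the families was not tested.

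**Figure D4:**
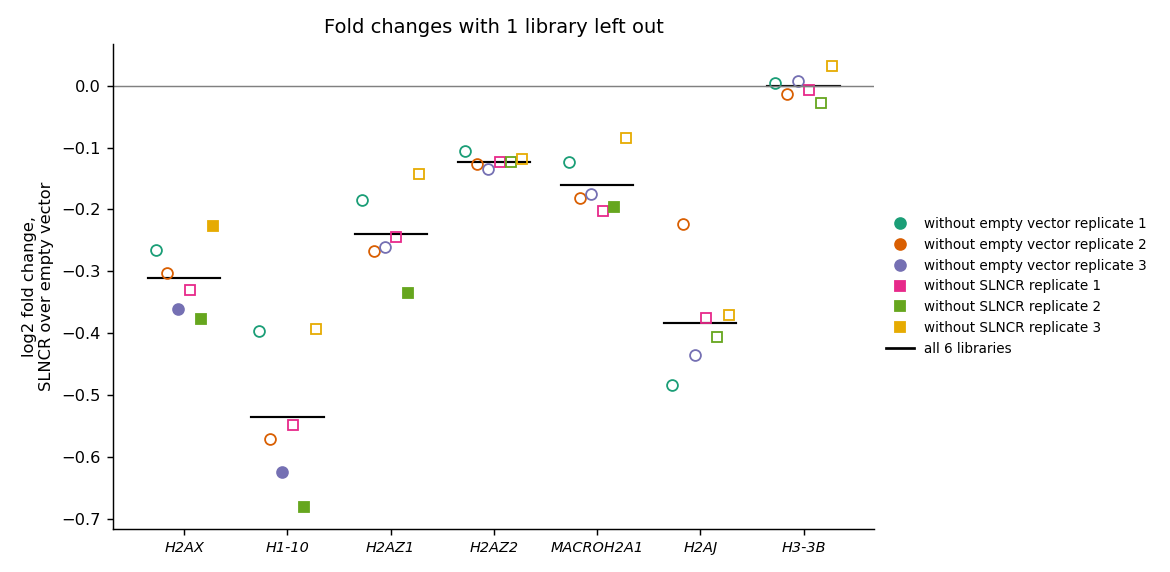
Log2 fold change of each variant gene with 1 library left out; circles leave out an empty vector library and squares an SLNCR library, filled symbols passed at an adjusted p of 0.05, and lines give the value with all 6. H1-10 lies at -0.39 without SLNCR replicate 3, at -0.40 without empty vector replicate 1 and at -0.68 without SLNCR replicate 2, whereas H2AZ2 stays between -0.13 and -0.11.

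Leaving out single libraries moved the genes unequally. The log2 fold change of H2AX lay between -0.38 and -0.23 over the 6 fits, that of H1-10 between -0.68 and -0.39, that of H2AJ between -0.48 and -0.22, and that of H2AZ2 between -0.13 and -0.11. In H2AX, H1-10, H2AZ1 and MACROH2A1 the value was nearest to 0 without SLNCR replicate 3 and farthest without SLNCR replicate 2, except that MACROH2A1 was farthest without SLNCR replicate 1. In these 4 genes the value next nearest to 0 was that without empty vector replicate 1, at -0.27, -0.40, -0.19 and -0.12. H1-10 passed without SLNCR replicate 2 and without empty vector replicate 3 (-0.68 and -0.63).

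Other variant genes outside the 9 were read beside them. CENPA, the H3 form of centromeres, stood at 15.4 to 20.2 CPM with the empty vector and at 14.7 to 17.9 CPM with SLNCR, and the groups overlapped (log2 fold change -0.22, adjusted p by edgeR = 0.216). H3-5, a histone gene closely related to H3-3B, had 20 to 55 counts and did not pass. H3-7 fell by 0.41 on the log2 scale (SE 0.0879, adjusted p by edgeR = 0.0139), from 53.6 to 64.0 CPM to 38.9 to 48.2 CPM, and stood at -0.37 after the GC correction (adjusted p by edgeR = 0.0577). A further 3 variant genes with a row had a mean count of at most 0.667 per library and were not tested.

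Proteins that deposit, exchange and modify the variants were divided in direction. Of 56 such genes 5 rose, 8 fell and 43 did not pass, with a median log2 fold change of -0.01. Over all genes, 8.84% passed as higher and 7.67% as lower. Leaving out replicate 1 or 2 of the empty vector, or replicate 1 of SLNCR, 0 of the 56 passed in edgeR, and 16, 17 and 17 had an unadjusted p below 0.05. In the same fits 2957 of 12898, 3473 of 12993 and 3663 of 12878 genes tested were below that level. Among 7 H3.3 deposition genes, ASF1A, a chaperone of H3 and H4, rose from 31.0 ± 2.80 to 38.8 ± 1.05 CPM (SD, n = 3 each; 0.33, SE 0.0847, adjusted p by edgeR = 0.0202). DAXX fell from 70.8, 66.1 and 67.1 CPM to 57.8, 59.1 and 58.9 CPM (-0.22, adjusted p by edgeR = 0.0355). Neither overlapped between groups, and 38.9% of all tested genes were likewise without overlap. HIRA stood at -0.10 and ATRX at 0.13, or 0.04 and -0.09 after the GC correction, and neither passed. The GC content of ASF1A is 34.9% and that of DAXX 54.8%, and after the correction they stood at 0.08 and -0.09 and did not pass.

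The 19 genes of H2A.Z exchange were split evenly, with 3 higher, 3 lower and 13 that did not pass. Among all genes 8.84% passed as higher and 7.67% as lower. SRCAP, the motor of the complex that inserts H2A.Z, fell from 516, 489 and 471 CPM to 406, 427 and 400 CPM (-0.26, adjusted p by edgeR = 0.0137). Elsewhere in the list of exchange genes, YEATS4 and MORF4L1 rose by 0.37 and 0.26 on the log2 scale (adjusted p by edgeR = 0.0151 and 0.0137). EP400, the motor of the other inserting complex, stood at -0.14, and ANP32E, a chaperone that removes H2A.Z, at 0.10, and neither passed. After the GC correction SRCAP stood at -0.09, MORF4L1 at 0.13, YEATS4 at 0.22, EP400 at -0.01 and ANP32E at -0.13, and none of these passed.

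Of the 12 genes that act with H2AX in the response to DNA breaks, PPP4C, the catalytic subunit of a phosphatase that acts on phosphorylated H2AX, fell from 80.1, 74.5 and 69.8 CPM to 60.0, 66.4 and 47.3 CPM (-0.37, SE 0.0987, adjusted p by edgeR = 0.0252), and 11 did not pass. With the GC correction PPP4C stood at -0.19 (adjusted p by edgeR = 0.224). Like H2AX, it has a high GC content (58.3%) and was lowest in SLNCR replicate 3. The kinase genes ATM, ATR and PRKDC stood at 0.17, 0.15 and 0.06, and at -0.008, -0.016 and 0.009 after the GC correction. Among 14 general histone chaperones, CHAF1A (-0.28), SSRP1 (-0.15) and SUPT6H (-0.16) fell and NAP1L1 rose by 0.14 on the log2 scale. Their adjusted p by edgeR was 0.0274, 0.0424, 0.0463 and 0.0461, in that order. The shares of all genes that passed were 7.67% lower and 8.84% higher. After the GC correction these chaperone genes stood at -0.11, -0.09, -0.06 and -0.06, and none passed. All 4 genes of CENP-A deposition, HJURP among them at -0.03, did not pass. With the GC correction 0 of the 56 passed in edgeR and 9 had an unadjusted p below 0.05, against 15.1% of all genes at that level.

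**Figure D5:**
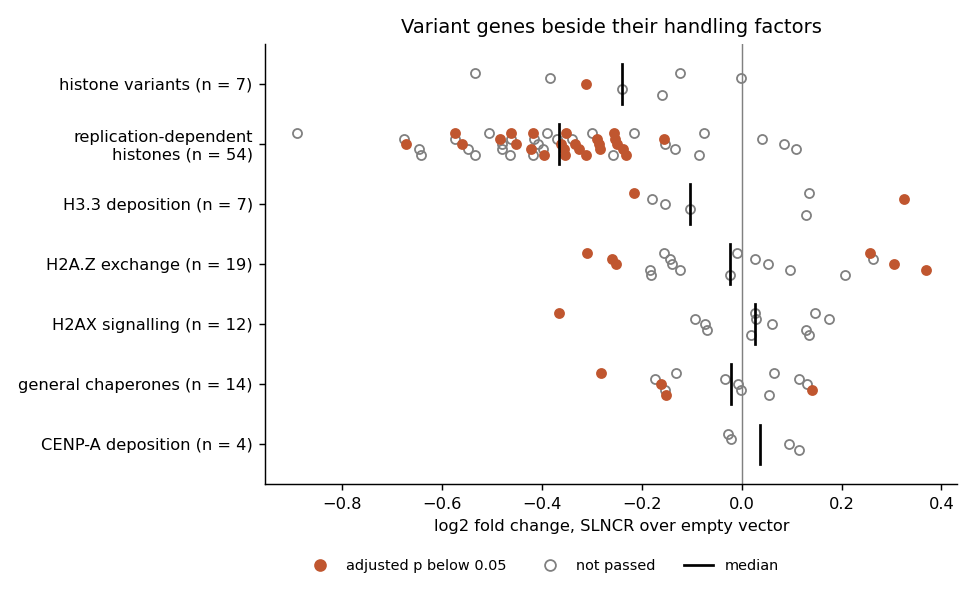
Log2 fold change of SLNCR over empty vector for each gene of the variant list, the replication-dependent histones and 5 lists of proteins that handle histone variants; filled points passed at an adjusted p of 0.05 and bars give the median. The 2 histone families lie mostly below 0, at medians of -0.24 and -0.37, and the handling lists scatter around medians between -0.10 and 0.04.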

How the data were processed

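The authors deposited raw read counts per gene for 6 libraries, judged by whole values and totals that differ. The tools cutadapt, STAR and DESeq2 and the build GRCh38 are named, per the submitters' processing notes, without role or order. Which counter, annotation and strand mode were used is not stated in the labels. Of 20238 rows, 1857 that name no gene (2.15% to 2.59% of counts) and 63 neighbouring rows with identical counts were left out, and 18318 genes remained. GENCODE release 29 gave coordinates, transcript length and GC content, and RefSeq (GRCh38.p14) gave promoters.

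SLNCR was set against empty vector by edgeR 4.0.16 under R 4.3.3 (quasi-likelihood F-test, robust, TMM, filterByExpr, two-sided, Benjamini-Hochberg over 12797 genes, threshold 0.05). The biological coefficient of variation was 5.65%. Standard errors came from the fold change and its F statistic. A prior count of 2 entered the log2 CPM values and the GC curves drawn from them, and was not set for the fold changes. The GC correction subtracted a loess curve (span 0.5) per library. The fits were also run on simulated data, with a simpler spread and GC trend than here. The outcome is not given and no result above rests on it. DESeq2 1.42.0, limma-voom (limma 3.58.1), other scalings and filters, a replicate block and leaving out each library were alternatives. Libraries of a group differed beyond sampling noise (chi-square per degree of freedom 1.78 to 6.94).

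Named were all listed genes, 9 partner or variant genes whatever their result (1 of them is not reported here), up to 3 passing genes of each list with the smallest p, and the 2 genes most like H2AX; SUPT6H, ATM, ATR, PRKDC, H3-5, H3P6, UNK and H1-10-AS1 were named after their values were seen. The members and lists were chosen with earlier results of these data known.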

Additional observations from a re-analysis of the deposited data

How the results depend on the processing

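Of the 7 variant genes, 1 passed in the comparison as reported. The number was 3 with no filter and with limma-voom, where 15.9% and 16.7% of all tested genes passed, 2 with a filter of 50 counts in 3 libraries and with DESeq2, where 20.7% and 17.9% passed, 0 with the GC correction on either transcript choice (the one on coding transcripts was chosen after seeing the data), and 0 to 4 when 1 library was left out. Of 16 alternatives H2AX passed in 10, H1-10 in 6, H2AZ1 in 5, MACROH2A1 in 3, H2AZ2 in 1 and H3-3B in 0. H2AJ passed in 0 of 14, and the cause of these differences was not tested. Over all genes 2112 (16.5%) passed, 2 with either GC correction, and 1 to 3366 without 1 library; of the 56 deposition and signalling genes 13 passed, 0 with either GC correction and 0 to 20 without 1 library. At an unadjusted edgeR p below 0.05 there were 1936 genes with the GC correction and 2957, 3473 and 3663 on leaving out replicate 1 or 2 of the empty vector or replicate 1 of SLNCR, respectively. The median of the variant genes stayed between -0.34 and -0.14 in every alternative run, the lowest without SLNCR replicate 2 and the highest without SLNCR replicate 3.

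The sign for H3-3B, near 0, turned under 8 alternatives: 0.003 with RLE size factors, 0.014 with no filter, 0.004 with DESeq2, 0.045 with the GC correction, 0.044 with the GC correction and replicate block, 0.004 without empty vector replicate 1, 0.008 without empty vector replicate 3 and 0.032 without SLNCR replicate 3; without 1 library it ranged from -0.028 to 0.032. The other 6 genes stayed below 0 in every alternative for which their value was listed. The filter of 50 counts removed H2AJ. With DESeq2 H2AJ had no adjusted p, and its fold change is not reported here.

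The labels do not say whether same-numbered libraries were paired. Deviations of same-numbered libraries correlated at 0.041, 0.022 and 0.195, and those of differently numbered libraries at -0.170 to 0.143. With the number as a replicate block 3523 genes (27.5%), 4 variant genes and 23 deposition genes passed, and with the block and the GC correction together 407 (3.18%; 161 higher, 246 lower), 2 (H2AZ2 and MACROH2A1) and 1. The H2AZ1 share had p = 0.5 with the block (exact sign permutation). The planned share of H3-3A was not run. H2AJ had the fewest counts of the 7, 28 to 46.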
